A study of Homo sapiens with 9 samples.

Results

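The ETO family of transcriptional corepressors and the corepressor proteins it works with were followed through induction of 2 leukaemia fusion proteins in U937 cells. The group holds 9 genes of the 60623 in the deposited tables, taken by gene name: the 3 ETO family genes RUNX1T1 (encoding ETO), CBFA2T2 (MTGR1) and CBFA2T3 (ETO2), the corepressor subunits NCOR1, TBL1XR1 and SIN3A, and the class I histone deacetylases HDAC1, HDAC2 and HDAC3. Each name had 1 identifier in the tables, so no choice between identifiers was needed, and all 9 genes were found. U937 is a monocytic cell line of human origin. Its sublines were stable transductants that carried a doxycycline-inducible retroviral vector, and doxycycline was given to all 3 of them.

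The control line carried the empty vector, without a fusion cDNA. The AML1-ETO clone, #4, was a single clone and expressed HA-tagged AML1-ETO, a fusion of RUNX1 with RUNX1T1. The ETO2-GLIS2 clone, #14, was a single clone and expressed HA-tagged ETO2-GLIS2, a fusion of CBFA2T3 with GLIS2. RNA was sequenced at 0, 12 and 48 h of 5 μg/ml doxycycline, with 1 library for each line and time, 9 in all. The labels give doxycycline for the 0 h libraries as well. The study lists a control library beside the 12 and 48 h ones of each line, so 0 h was read as before induction. No difference below has a replicate check and no test between conditions was possible. A difference between lines also cannot be told apart from a difference between the clones.

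ETO family proteins do not bind DNA by themselves. They are brought to genes by DNA-binding proteins, form homo- and hetero-oligomers through a shared domain, and recruit the NCoR and SIN3 complexes, whose histone deacetylases remove acetyl groups from histone tails. In the fusion proteins the ETO family part is joined to a DNA-binding partner, RUNX1 or GLIS2. Reads on RUNX1T1 in the AML1-ETO clone, and on CBFA2T3 in the ETO2-GLIS2 clone, can come from the native gene or from the construct, and the tables do not tell them apart.

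Levels are FPKM, the reads on a gene scaled to its exon length and to the library total. Levels of different native genes can be set side by side only as far as this exon length matches the transcripts made. That match was not measured. The exon length is that of the whole gene, 13535 bases for RUNX1T1 and 5975 for CBFA2T3, of which a fusion cDNA holds only a part. Levels that include construct reads are therefore not on the scale of native genes. The libraries held 15136405 to 18443649 reads on genes. Fold changes are log2 of FPKM plus 0.01, and their 95% intervals are exact binomial intervals from the reads recovered behind the FPKM values, which cover counting error only, reads not being independent molecules. A gene entered a comparison, and is called tested below, when the 2 libraries averaged 1 FPKM or more. It was called when it passed 2-fold and, in a fusion line, was not called in the same direction in the control line at the same time. As a check of the cell type, the monocytic and myeloid genes SPI1, LYZ and CD33 were above 1 FPKM in 9 of 9 libraries, ITGAM in 8 and CSF1R in 4, while MPO, CD14 and CD68 stayed below 1 FPKM in all 9 libraries. Of the CD68 exon bases, 81.6% are shared with another gene on the same strand. The lymphoid, erythroid, megakaryocytic and epithelial markers CD3D, CD3E, MS4A1, HBB, PF4, GP9 and EPCAM were at 0 in every library, and ITGA2B was at most 0.107 FPKM.

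Before induction the 9 genes spanned a wide range of levels, whose order depends in part on the exon lengths used. By the median over the 3 uninduced libraries, HDAC1 was highest at 69.4 FPKM, followed by NCOR1 at 20.5, TBL1XR1 at 15.9, SIN3A at 14.1, HDAC2 at 10.6, HDAC3 at 9.88, CBFA2T2 at 8.70 and CBFA2T3 at 4.75 FPKM, with RUNX1T1 at 0. The uninduced ranges of HDAC1, from 68.3 to 78.8 FPKM, and of NCOR1, from 15.9 to 22.9 FPKM, did not overlap. NCOR1 overlapped with TBL1XR1, TBL1XR1 with SIN3A and HDAC2 with HDAC3, and the order within each of these pairs differed between lines. HDAC3 and CBFA2T2 overlapped too, but HDAC3 was the higher in each of the 3 lines. CBFA2T3, from 4.10 to 5.26 FPKM, lay below CBFA2T2, from 7.77 to 9.57 FPKM, in each of the 3 lines.

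**Figure D1:**
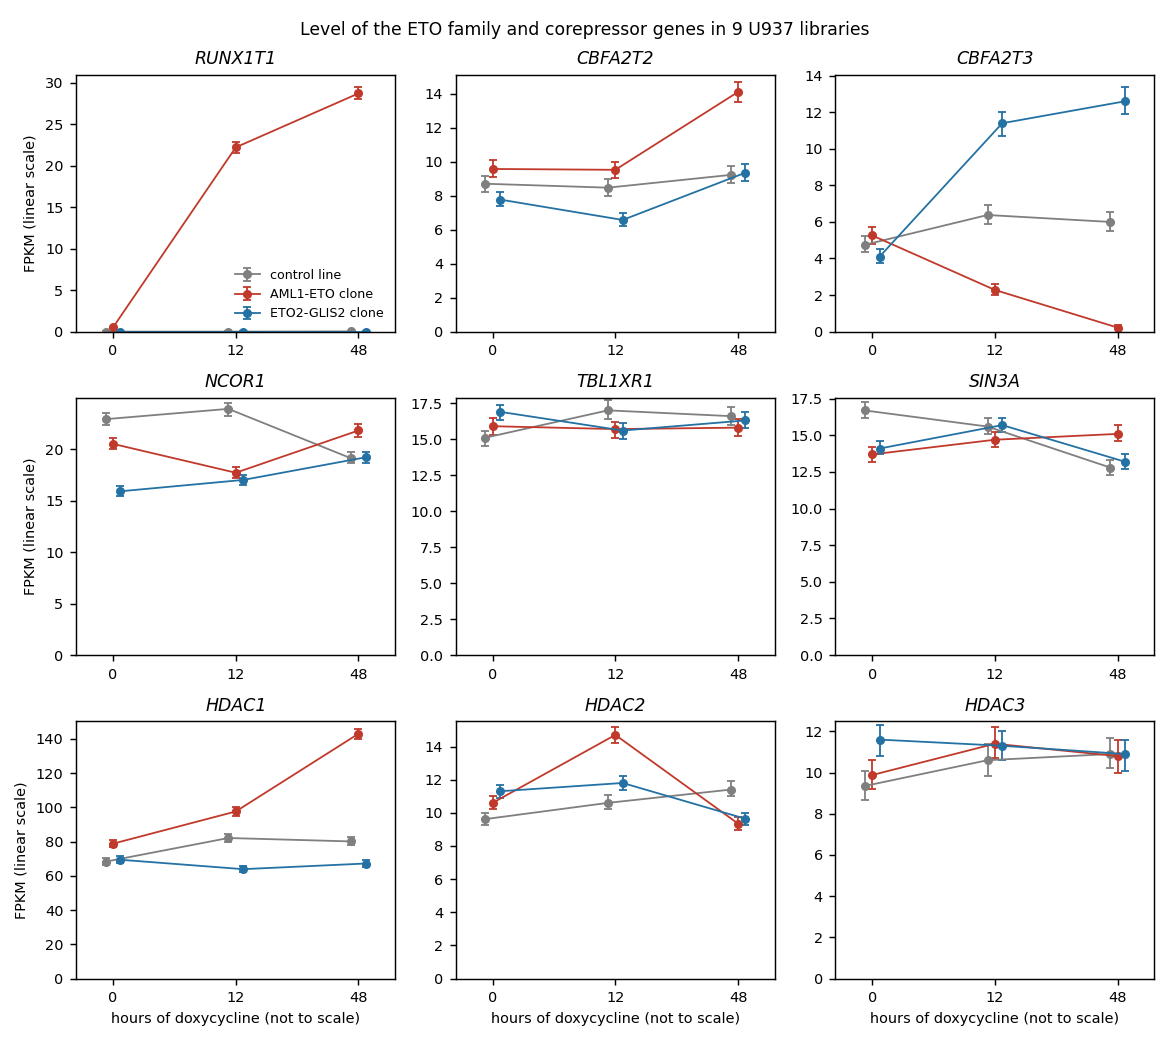
Level of each of the 9 genes in FPKM (vertical axis, linear) by hours of doxycycline (horizontal axis, not to scale) in the control line and the AML1-ETO and ETO2-GLIS2 clones. Points are single libraries and bars are 95% counting intervals. RUNX1T1 stands visibly above 0 in the AML1-ETO clone alone, CBFA2T3 runs from 5.26 to 0.22 FPKM in the AML1-ETO clone and from 4.10 to 12.6 in the ETO2-GLIS2 clone, and HDAC1 reaches 143 FPKM in the AML1-ETO clone.

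RUNX1T1 (ENSG00000079102), the founding member of the family and the part that the AML1-ETO fusion takes from chromosome 8, was all but silent outside the AML1-ETO clone. Its level in that clone was 0.512 FPKM at 0 h, 22.2 at 12 h and 28.7 at 48 h. In the control line it was at 0, 0 and 0.024 FPKM, the last from 5 reads, and in the ETO2-GLIS2 clone it was at 0 in all 3 libraries, where 3 reads would have given between 0.012 and 0.0135 FPKM. The AML1-ETO libraries therefore stood apart from the other 6 at every time, including before doxycycline, when the line had 115 reads on the gene against 0 in both other lines, at least 37.6-fold higher than in the control line and at least 42.6-fold higher than in the ETO2-GLIS2 clone with the other library set to 3 reads. At 12 h the difference was at least 1513-fold against the control line and at least 1788-fold against the ETO2-GLIS2 clone. At 48 h RUNX1T1 was at least 2120-fold higher than in the ETO2-GLIS2 clone, and its log2 difference from the control line was 9.72 (95% interval 9.0 to 11.85). Within the line it rose by log2 5.41 (5.17 to 5.71) by 12 h and 5.78 (5.54 to 6.09) by 48 h, and most of this was reached by 12 h, the log2 difference between 48 and 12 h being 0.37 (0.32 to 0.43).

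The partner genes RUNX1 and GLIS2 were read as a second check of the constructs. Their reads, too, can come from the native gene or from the construct that holds part of it. RUNX1, the DNA-binding partner in AML1-ETO, had 17.4, 17.8 and 16.8 FPKM at 0, 12 and 48 h in the AML1-ETO clone. The control line had 19.3, 21.9 and 26.2 FPKM. No rise in total RUNX1 reads thus accompanied the rise of RUNX1T1, and the RUNX1 part of the construct was not seen in this check. Its reads would be scaled to all 15574 exon bases of the gene and cannot be told apart from native reads. GLIS2, the zinc finger partner in ETO2-GLIS2, rose in the ETO2-GLIS2 clone from 2.39 to 6.79 and 8.85 FPKM, a log2 change of 1.5 at 12 h and 1.88 at 48 h. Uninduced, the ETO2-GLIS2 clone had the lowest GLIS2 level of the 3 lines, 2.39 against 4.76 FPKM in the control line and 5.60 in the AML1-ETO clone. In the AML1-ETO clone, whose construct does not hold it, GLIS2 had 2.93 and 2.47 FPKM after induction and fell by log2 1.18 at 48 h. The control line went from 4.76 to 3.64 and 3.72 FPKM, so net of it the 48 h change was -0.82, and against the control library at 48 h the log2 difference was -0.59 (-0.88 to -0.30), within 2-fold. In the ETO2-GLIS2 clone the log2 difference from the control library was 0.90 at 12 h, within 2-fold, and 1.25 at 48 h. In the annotation, 23.5% of the GLIS2 exon bases lie opposite exons of another gene.

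CBFA2T3 (ENSG00000129993, chr16:88874858-88977207 in GRCh38, the coordinate set of the hg38 tables), a corepressor of haematopoietic progenitors, moved in opposite directions in the fusion lines. In the AML1-ETO clone it had 5.26 FPKM at 0 h, 2.28 at 12 h and 0.22 at 48 h, from 521, 210 and 20 reads. In the control line it had 4.75, 6.38 and 6.0 FPKM, and in the ETO2-GLIS2 clone 4.10, 11.4 and 12.6 FPKM. The 12 h and 48 h libraries of the AML1-ETO clone were the lowest of the 9 and those of the ETO2-GLIS2 clone the highest, while the 3 uninduced libraries lay between them, from 4.10 to 5.26 FPKM.

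CBFA2T3 in the AML1-ETO clone fell by log2 1.20 by 12 h (95% interval of the change -1.45 to -0.97) and by 4.52 by 48 h (-5.30 to -3.94), that is 22.9-fold. The 12 h change no longer passed 2-fold with a pseudocount of 1 FPKM. The fall was still under way between 12 and 48 h, where the log2 change was -3.31. Against the control library of the same time the log2 difference was 0.15 (-0.04 to 0.33) at 0 h, -1.48 (-1.72 to -1.26) at 12 h and -4.71 (-5.49 to -4.13) at 48 h. Only 0.665% of the tested genes had a lower log2 fold change in the AML1-ETO clone at 48 h. The AML1-ETO construct holds no CBFA2T3 sequence. In RNA of bulk cells, fewer cells with an RNA and less of it per cell cannot be told apart. The summed level of the 8 monocytic marker genes was also lowest in this library, 65 FPKM against 439 to 1611 FPKM in the other 8 libraries. LYZ made up most of this sum, with 45.1 FPKM here and 332 to 1517 in the others, and SPI1, ITGAM and CSF1R were also at their lowest in this library, while CD33, at 6.65 FPKM, was not. The sum did not always move with CBFA2T3: it was 1070 and 1410 FPKM at 0 and 12 h in the AML1-ETO clone, and 1380, 1611 and 439 FPKM at 0, 12 and 48 h in the ETO2-GLIS2 clone. Its part in the fall of CBFA2T3 was not tested.

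In the ETO2-GLIS2 clone, whose construct does hold CBFA2T3 sequence, the gene rose by log2 1.47 (1.31 to 1.63) by 12 h and 1.62 (1.47 to 1.78) by 48 h. The rise was nearly complete at 12 h. The control line itself had log2 changes of 0.42 (0.25 to 0.60) and 0.34 (0.16 to 0.52), within 2-fold, and against the control library of the same time the ETO2-GLIS2 clone was higher by log2 0.83 (0.69 to 0.98) at 12 h and 1.07 (0.93 to 1.22) at 48 h. Measured this way the 12 h difference did not reach 2-fold. Of the CBFA2T3 exon bases, 8.38% lie opposite exons of other genes. The library kit named in the study does not mark strand, so reads of the genes on either strand cannot be told apart there.

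CBFA2T2 (ENSG00000078699, chr20:33490096-33650030), the third and most evenly expressed family gene, passed 2-fold in no line. It had 8.70, 8.47 and 9.22 FPKM at 0, 12 and 48 h in the control line, 9.57, 9.52 and 14.1 in the AML1-ETO clone, and 7.77, 6.57 and 9.35 in the ETO2-GLIS2 clone. The 48 h library of the AML1-ETO clone was the highest of the 9. Its log2 fold change was 0.56 (0.46 to 0.65), or 0.47 net of the change in the control line, and 66.9% of the tested genes had a lower log2 fold change in that comparison. The value at 12 h in the same line was -0.01 (-0.11 to 0.10).

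Promoter sequences were set beside these values because CBFA2T3, CBFA2T2 and HDAC1 were the native genes of the group with the largest changes in the AML1-ETO clone at 48 h against 0 h. RefSeq (GRCh38.p14) promoter windows of 250 bases before and 50 after a start were matched for 8 of the 9 genes, RUNX1T1 being the gene without a match. The 250 bases before the start are printed on the strand of the gene, with capitals marking any match to the motifs searched.
CBFA2T3, chr16:88941351-88941600, minus strand: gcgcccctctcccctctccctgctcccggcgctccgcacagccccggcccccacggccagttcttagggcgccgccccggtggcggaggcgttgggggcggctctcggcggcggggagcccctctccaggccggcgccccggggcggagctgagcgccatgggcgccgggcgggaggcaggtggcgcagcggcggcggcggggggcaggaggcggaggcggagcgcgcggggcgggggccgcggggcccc
CBFA2T2, chr20:33562092-33562341, plus strand: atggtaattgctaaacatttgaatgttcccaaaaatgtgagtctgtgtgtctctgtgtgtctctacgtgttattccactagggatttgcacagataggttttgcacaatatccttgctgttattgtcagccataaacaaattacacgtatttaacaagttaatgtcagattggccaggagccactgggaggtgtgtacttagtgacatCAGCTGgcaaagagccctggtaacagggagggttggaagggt
HDAC1, chr1:32291833-32292082, plus strand: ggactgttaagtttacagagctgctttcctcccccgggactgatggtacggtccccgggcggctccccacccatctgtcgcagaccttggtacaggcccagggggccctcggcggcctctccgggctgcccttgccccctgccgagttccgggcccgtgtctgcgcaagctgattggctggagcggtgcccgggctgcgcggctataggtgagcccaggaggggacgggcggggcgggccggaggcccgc

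The CBFA2T3 window had a GC content of 83%, higher than 99.2% of the 35116 promoter windows, whose median was 58.7%. The CBFA2T2 window had 44.3%, higher than 19.4% of them. The motifs searched on both strands were TGTGGT and TGCGGT (RUNX), GGGGGGT (GLIS), CGGAAG (ETS) and CAGCTG (E-box), found in 13.1%, 7.29%, 4.87%, 19.5% and 17.9% of all windows, with no overlap between their matches in these genes. None of the 8 windows held a RUNX or GLIS motif. CBFA2T2 held 1 E-box, NCOR1 held 1 ETS motif, SIN3A held 1 of each of these, and the windows of CBFA2T3, TBL1XR1, HDAC1, HDAC2 and HDAC3 held none. A match is a run of letters, not a measured binding site. The CBFA2T3 start lies 35.9 kb and the CBFA2T2 start 72.2 kb inside the outermost start of the gene in RefSeq, and which start was used in these cells was not measured.

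The genes around CBFA2T3 were looked at to see whether its fall was shared along the chromosome. RefSeq lists 34 genes within 250 kb, 21 of them are in the tables and 14 passed the expression filter in the AML1-ETO clone at 48 h. None was called higher and 3 were called lower, against 14.2% higher and 10.2% lower of all 12030 tested genes. SNAI3, a zinc finger factor, had 5.68, 3.57 and 1.44 FPKM at 0, 12 and 48 h, RNF166, a ubiquitin ligase, had 11.9, 7.12 and 2.85, and CDT1, a DNA replication licensing factor, had 38.2, 29.1 and 12.3 FPKM. The median log2 fold change of the 14 was -0.23, with a range from -2.77 to 0.46. The lowest of them, MVD of the mevalonate pathway, was lowered in the control line as well and so was not called. CBFA2T3 fell by more than each of them, and its nearest tested neighbours, TRAPPC2L and GALNS, had log2 fold changes of 0.43 and -0.54.

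**Figure D2:**
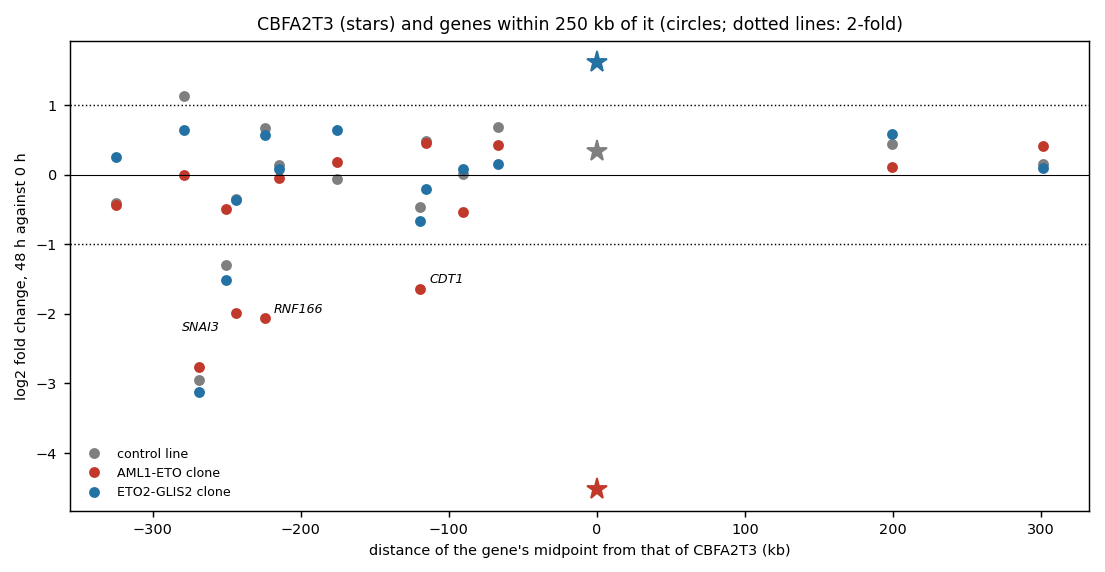
Log2 fold change at 48 h against 0 h (vertical axis) by the distance between the midpoint of a gene and that of CBFA2T3 in kb (horizontal axis), for the tested genes within 250 kb. Stars are CBFA2T3, circles its neighbours, colours the 3 lines and dotted lines 2-fold. In the AML1-ETO clone the star lies at -4.52, below all 14 neighbours, and the 3 neighbours called lower are labelled.

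The summed level of the family shifted with these changes. CBFA2T2 and CBFA2T3 together had 14.8, 11.8 and 14.3 FPKM at 0, 12 and 48 h in the AML1-ETO clone, so their sum at 48 h was near the uninduced one while the share of CBFA2T3 in it went from 35.5% to 19.3% and 1.54%. With RUNX1T1 the sum was 15.3, 34 and 43 FPKM, of which RUNX1T1 made up 3.34%, 65.3% and 66.8%. In the ETO2-GLIS2 clone the sum was 11.9, 17.9 and 22 FPKM, and CBFA2T3 made up 34.5%, 63.3% and 57.4% of it. In the control line it was 13.5, 14.9 and 15.2 FPKM. The sums and shares that include construct reads carry the scaling limit given above, so they are not shares of transcript number.

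None of the 3 corepressor subunits passed 2-fold in any line. NCOR1 (ENSG00000141027, chr17:16029157-16215534), the platform protein of the NCoR complex, had 22.9, 23.9 and 19.1 FPKM at 0, 12 and 48 h in the control line, 20.5, 17.7 and 21.8 in the AML1-ETO clone, and 15.9, 17.0 and 19.2 in the ETO2-GLIS2 clone. The lines differed most before induction, by a log2 difference of -0.53 (-0.59 to -0.47) between the ETO2-GLIS2 and the control line, and at 48 h that difference was 0.00 (-0.06 to 0.06). The ranges of the 3 lines overlapped.

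TBL1XR1 (ENSG00000177565, chr3:177019344-177201800), a WD40-repeat subunit that exchanges corepressors on chromatin, had 15.1, 17.0 and 16.6 FPKM in the control line, 15.9, 15.7 and 15.8 in the AML1-ETO clone, and 16.9, 15.6 and 16.3 in the ETO2-GLIS2 clone. Its highest library was 1.13 times its lowest, the narrowest spread of the 9 genes. SIN3A (ENSG00000169375, chr15:75369379-75455815), the scaffold of the SIN3 complex, had 16.7, 15.6 and 12.8 FPKM in the control line, 13.7, 14.7 and 15.1 in the AML1-ETO clone, and 14.1, 15.7 and 13.2 in the ETO2-GLIS2 clone. Both its highest and its lowest library belonged to the control line, where the log2 fold change at 48 h was -0.39 (-0.47 to -0.31).

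Of the class I deacetylases, the catalytic subunits of these complexes, HDAC1 had the largest change. HDAC1 (ENSG00000116478, chr1:32292083-32333626) had 68.3, 82.1 and 80.1 FPKM at 0, 12 and 48 h in the control line, 78.8, 97.6 and 143 in the AML1-ETO clone, and 69.4, 63.9 and 67.2 in the ETO2-GLIS2 clone. The 48 h library of the AML1-ETO clone stood above all others. Its log2 fold change was 0.86 (0.81 to 0.91), 1.81-fold and so below the 2-fold limit, and 0.63 net of the change in the control line. In that comparison 34.7% of the tested genes had a larger absolute change. Set against the ETO2-GLIS2 library of the same time it was higher by log2 1.09 (1.03 to 1.14), past 2-fold, as were 9.59% of 12379 tested genes.

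HDAC2 (ENSG00000196591, chr6:113933028-113971148), the close paralogue of HDAC1, had 9.62, 10.6 and 11.4 FPKM in the control line, 10.6, 14.7 and 9.35 in the AML1-ETO clone, and 11.3, 11.8 and 9.64 in the ETO2-GLIS2 clone. Both its highest and its lowest library came from the AML1-ETO clone, with log2 fold changes of 0.47 (0.39 to 0.54) at 12 h and -0.18 (-0.26 to -0.10) at 48 h. The ratio of HDAC1 to HDAC2 FPKM was 7.43, 6.66 and 15.3 at 0, 12 and 48 h in the AML1-ETO clone and between 5.42 and 7.72 in the other 6 libraries, and HDAC1 made up 87.6% of the summed level of the 3 deacetylases in the AML1-ETO clone at 48 h against 73.5% to 79.5% elsewhere. HDAC1 was scaled to 3966 bases and HDAC2 to 15333, and the uninduced control library had 4407 and 2400 reads on them. The size of the ratio and of the shares thus depends on these lengths, while the change of the ratio between libraries does not. HDAC3 (ENSG00000171720, chr5:141620881-141636849), the deacetylase of the NCoR complex, had 9.35, 10.6 and 10.9 FPKM in the control line, 9.88, 11.4 and 10.8 in the AML1-ETO clone, and 11.6, 11.3 and 10.9 in the ETO2-GLIS2 clone. Its 3 lines overlapped, and its log2 fold changes lay between -0.09 and 0.22.

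Over the group, 2 of 9 tested genes were called at 48 h in the AML1-ETO clone, where 24.4% of all tested genes were, and the same 2, RUNX1T1 and CBFA2T3, were called at 12 h, where 6.94% of all tested genes were. In the ETO2-GLIS2 clone 1 of 8 tested genes, CBFA2T3, was called at 12 h and at 48 h, where 3.01% and 8.62% of all tested genes were. No gene of the group was called in the control line, where 7.53% of all tested genes were past 2-fold at 12 h and 11% at 48 h. RUNX1T1 did not pass the expression filter in the control line or the ETO2-GLIS2 clone. Of these calls, that of RUNX1T1 in the AML1-ETO clone and that of CBFA2T3 in the ETO2-GLIS2 clone include the construct, which leaves the fall of CBFA2T3 as the call on a native gene alone. The median log2 fold change of the tested genes of the group at 48 h was 0.18 in the control line, 0.13 in the AML1-ETO clone and -0.05 in the ETO2-GLIS2 clone, beside 0.16, 0.22 and 0.16 over all tested genes. The share of reads on mitochondrial genes was 6.14% to 7.01% at 0 h and 2.54% to 4.0% at 48 h in the 3 lines, and with mitochondrial genes left out of the library totals the 48 h medians over all tested genes were 0.12 in the control line, 0.16 in the AML1-ETO clone and 0.10 in the ETO2-GLIS2 clone.

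**Figure D3:**
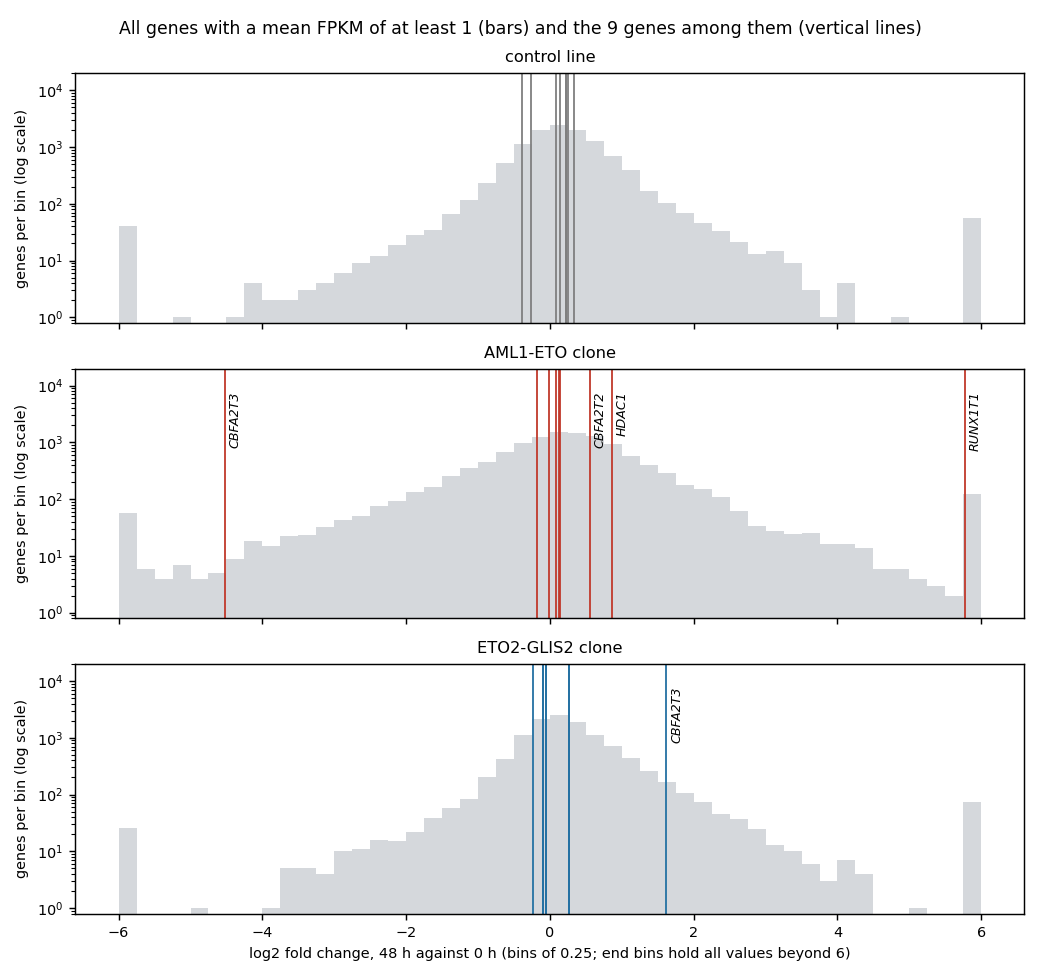
Number of tested genes (vertical axes, log scale) by log2 fold change at 48 h against 0 h (horizontal axis, bins of 0.25, the end bins also holding all values beyond 6) in each line, with the tested genes of the group as vertical lines. In the AML1-ETO clone CBFA2T3 lies at -4.52 and RUNX1T1 at 5.78, while the other 7 genes lie between -0.18 and 0.86.

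Other genes of the same machinery were read from lists of 60 genes, of which 49 passed the filter in the AML1-ETO clone and 48 in the ETO2-GLIS2 clone at 48 h. In the AML1-ETO clone 4 of the 49 rose and 4 fell by 48 h, against 14.2% and 10.2% of all tested genes, and none was called at 12 h. In the ETO2-GLIS2 clone none was called at either time. In the control line ZBTB16 alone was called, lower at 48 h. The median log2 fold change of the 49 genes at 48 h in the AML1-ETO clone was 0.01, beside 0.22 for all tested genes. Against the control library at 48 h, 4 of 48 tested genes were past 2-fold higher in the AML1-ETO clone and 5 lower, where 11.8% and 11.7% of all tested genes were. In the ETO2-GLIS2 clone that comparison had LYL1 alone past 2-fold, lower, with 2.53% of all tested genes lower.

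The counts by complex that follow are for the AML1-ETO clone at 48 h against 0 h, where 24.4% of all tested genes were called in either direction. Of 3 further NCoR complex genes listed, 2 were tested and neither was called in any line. One of these, CORO2A, an actin-binding component of the complex, was nonetheless past 2-fold against the control library at 48 h, by log2 1.30 (1.16 to 1.43). It had 17.6, 17.5 and 17.7 FPKM at 0, 12 and 48 h in the AML1-ETO clone and 11.8, 10.5 and 7.19 in the control line, so the difference widened while the level in the clone stayed near its uninduced one. In the SIN3 complex, 1 of 15 tested genes was called. SIN3B, the paralogue of SIN3A, rose from 7.80 to 16.9 FPKM in the AML1-ETO clone, by log2 1.12 (1.02 to 1.22), and had 6.48 and 12.1 FPKM in the ETO2-GLIS2 clone, a log2 change of 0.90 that stayed within 2-fold. The control line had 9.08 and 10.2 FPKM, and against its 48 h library SIN3B in the AML1-ETO clone was higher by log2 0.74 (0.64 to 0.84), within 2-fold, so the call was lost in that comparison. There SAP30, another subunit of the complex, was past 2-fold, lower, with 10.2 against 23.1 FPKM.

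In the NuRD complex, a deacetylase complex with a nucleosome remodeller, 1 of 8 tested genes was called. The remodeller gene CHD3 had 57.5, 34.3 and 9.23 FPKM at 0, 12 and 48 h in the AML1-ETO clone, so that it fell by 2.64 on the log2 scale, and 53.4, 44.8 and 33.0 in the control line. Its paralogue CHD4 had 0.343 to 0.837 FPKM, and 46.9% of its exon bases are shared with another gene on the same strand, so its level was not read. In the CoREST complex, which pairs HDAC1 and HDAC2 with a histone demethylase, 2 of 8 tested genes were called, a share near the 24.4% of all tested genes. ZMYM3 rose from 23.4 to 60.1 FPKM, by log2 1.36, and PHF21A, a histone H3 reader, from 6.34 to 13.4 FPKM, by log2 1.07. Both were near their uninduced level at 12 h, with 21.7 and 5.60 FPKM. PHF21A, at 1.07, and SIN3B of the SIN3 complex, at 1.12, lay close to the 2-fold limit. Rescaling by the median ratio of expressed genes divides each library by 1 factor, here 0.949 at 0 h and 1.05 at 48 h. It took HDAC1 in this clone at 48 h from 0.86 to 0.71 and BCL6 from 1.67 to 1.52. The same shift takes PHF21A and SIN3B below 2-fold, so their calls do not hold under that scaling. Of the other zinc-dependent deacetylases 3 of 8 were tested and none was called in any line.

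Among transcription factors reported to bind ETO family proteins, 3 of 9 tested genes were called in the AML1-ETO clone at 48 h, beside the 24.4% of all tested genes. BCL6, a germinal centre repressor that recruits NCoR, rose from 4.92 to 15.7 FPKM, by log2 1.67, and had 4.55 and 2.44 FPKM in the control line. LYL1, a haematopoietic bHLH factor, had 47.7, 44.2 and 18.5 FPKM at 0, 12 and 48 h in the AML1-ETO clone, a fall by log2 1.37, and 34.6, 21.3 and 19.5 FPKM in the ETO2-GLIS2 clone, where its log2 change of -0.83 stayed within 2-fold. The control line had 46.6, 47.8 and 54.7 FPKM of LYL1, and against its library of the same time the ETO2-GLIS2 clone was lower by more than 2-fold at 12 h, with a log2 difference of -1.17 (-1.27 to -1.07) where 4.36% of all tested genes were lower, and at 48 h, with -1.49 (-1.60 to -1.38). ZBTB16 was also past 2-fold lower there at 12 h, with -1.80, and was so before induction, with -1.41 at 0 h. IRF2BP2, a corepressor that binds ETO2, fell from 81.1 to 31.2 FPKM, by log2 1.38, while the control line had 69.3 and 124 FPKM. Of 4 coactivators linked to AML1-ETO, 1 was called. KAT2B, which encodes the acetyltransferase PCAF, had 8.70, 6.54 and 1.08 FPKM at 0, 12 and 48 h in the AML1-ETO clone, so that it fell by 2.99 on the log2 scale (-3.34 to -2.68), against 9.58, 12.4 and 13.9 FPKM in the control line and 7.41, 8.97 and 11.7 in the ETO2-GLIS2 clone.

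The genes whose levels ran most like those of each family gene were named by Pearson's r of log2 FPKM over the 9 libraries, among 7227 genes whose mean reached 5 FPKM. These values describe 9 libraries that share 3 lines and 3 time points, and are given without a test. For RUNX1T1 they were GRK3 with 0.967, PVR with 0.967 and LMO2 with 0.963. Outside the AML1-ETO clone RUNX1T1 had at most 0.024 FPKM, so its log2 values there were set mainly by the pseudocount of 0.01 FPKM. Inside the clone its reads can come from the construct. Likeness to RUNX1T1 therefore mostly ranks genes by how far that clone differed from the other lines. LMO2 had 59.9, 79.7 and 82.5 FPKM at 0, 12 and 48 h in the AML1-ETO clone and 39.4 to 57.0 in the other 6 libraries, so it too was highest in the AML1-ETO clone before induction. For CBFA2T2 they were MIB2 with 0.973, TSC22D4 with 0.969 and INPPL1 with 0.962.

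For CBFA2T3 the most alike were PTAFR with 0.989, IKZF1 with 0.988 and SLA with 0.985. PTAFR, the receptor of platelet-activating factor, had 26.0, 14.4 and 4.29 FPKM in the AML1-ETO clone and 26.0, 35.7 and 36.1 in the ETO2-GLIS2 clone. SLA, an adaptor of antigen receptor signalling, had 10.1, 5.16 and 0.167 FPKM in the AML1-ETO clone and 10.0, 18.3 and 21.4 in the ETO2-GLIS2 clone, whose construct does not hold it. Over the 6 libraries of the lines without a CBFA2T3 construct, and among 7244 genes, they were ANKRD44 with 1.0, RASSF5 with 0.998 and TP53I11 with 0.998. Of these libraries, the AML1-ETO clone at 48 h had 0.22 FPKM of CBFA2T3 and the rest had 2.28 to 6.38. These r values thus rest heavily on 1 library. RASSF5 had 12.5, 6.31 and 0.923 FPKM in the AML1-ETO clone and 13.6, 16.9 and 15.8 in the control line. The 48 h library of the AML1-ETO clone was the lowest of the 9 for PTAFR, SLA, RASSF5 and CBFA2T3 alike. PTAFR, SLA and RASSF5 were picked for their likeness to CBFA2T3 in these libraries, so this shared low follows from the choice and is no separate result.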

How the data were processed

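RNA-seq libraries of 9 U937 samples (3 lines at 0, 12 and 48 h) were analysed. Per the study's methods and the submitters' processing notes, the authors aligned reads to hg38 with HISAT2 (2.0.5), processed the alignments in SAMtools (1.7) and assigned reads to genes in HTSeq (0.9.1) at default parameters, which drops reads in bases shared by genes, and deposited FPKM for 60623 genes. The annotation version is not given in the sources used here, and the strand setting is given only as the default.

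Groups were taken from sample titles, and each condition had 1 library, so no test was run. The whole reads behind the deposited FPKM were recovered from their steps in Python (3.11.15, with scipy 1.17.1, pandas 2.3.3 and numpy 2.4.6; plots by matplotlib 3.10.9). Of 23794 genes with at most 20000 reads, 23790 gave whole reads, the 9 genes within 0.015 of a read, and the recovery was tested on simulated data. Intervals are 95% Clopper-Pearson, detection floors are 3 reads, and both cover counting error only. The pseudocount was 0.01 FPKM, the filter a mean of 1 FPKM and the limit 2-fold. Promoter windows, gene positions and neighbours come from RefSeq (GRCh38.p14), and shares of overlapping exon bases from GENCODE on GRCh37, with no coordinates taken from it.

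The members and lists were chosen with earlier results of these data known. Some listed genes are not reported here, and their lists are counted without them. The 9 genes and both fusion partners were always named, from each list at most 4 genes called at 48 h in a fusion line, the called neighbours of CBFA2T3, and the 3 genes most alike each family gene. MVD, TRAPPC2L and GALNS were named after their values were seen, as were ZBTB16, CORO2A, SAP30 and the low genes with overlaps. Alternatives changed the pseudocount, expression filter, scaling, fold limit, treatment of the control line and handling of repeated names.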

Additional observations from a re-analysis of the deposited data

Results flagged for a closer look

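Some genes lay on one side of no change at both 12 and 48 h in a line and on the other side at both times in another line. With 1 library per condition the difference was not tested for any of them. Each value is the difference between lines in log2 fold change at 48 h against 0 h. Among the 9 genes, CBFA2T3 differed by -6.14 between the AML1-ETO and ETO2-GLIS2 clones and by -4.85 between the AML1-ETO clone and the control. The ETO2-GLIS2 reads of CBFA2T3 can include the construct, so -6.14 does not compare the native gene alone. HDAC1 differed by 0.91 between the AML1-ETO and ETO2-GLIS2 clones and by -0.28 between the ETO2-GLIS2 and control lines. SIN3A differed by 0.53 between the AML1-ETO clone and the control. HDAC3 differed by 0.22 between the AML1-ETO and ETO2-GLIS2 clones and by -0.31 between the ETO2-GLIS2 and control lines. Its changes in the ETO2-GLIS2 clone were -0.03 (-0.16 to 0.10) at 12 h and -0.09 (-0.23 to 0.05) at 48 h. Their counting intervals include no change, as does that of HDAC1 in this clone at 48 h, -0.05 (-0.10 to 0.01). TBL1XR1 differed by -0.15 between the AML1-ETO clone and the control and by -0.19 between the ETO2-GLIS2 and control lines, with fold changes of the fusion lines close to 0. Some of these patterns depend on where no change is set. After rescaling by the median ratio of expressed genes 14 of the 19 differences given here and for the genes that follow were still between lines on opposite sides. SIN3A was not, with -0.05 and -0.01 at 12 and 48 h in the AML1-ETO clone and -0.23 and -0.52 in the control line, nor was HDAC3 between the fusion clones, with 0.06 and -0.02 in the AML1-ETO clone and -0.14 and -0.22 in the ETO2-GLIS2 clone.

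For the fusion partner GLIS2 the values were -3.06 between the AML1-ETO and ETO2-GLIS2 clones and 2.24 between the ETO2-GLIS2 and control lines, and the ETO2-GLIS2 reads include the construct. Among the other pathway genes, the AML1-ETO clone differed from the ETO2-GLIS2 clone by 2.16 in BCL6 and -3.65 in KAT2B. It differed from the control line by 2.56 in BCL6, -2.22 in IRF2BP2, -3.53 in KAT2B and -1.60 in LYL1. The ETO2-GLIS2 clone differed from the control line by -1.06 in LYL1 and 0.37 in PHF21A. Both patterns of LYL1 and that of PHF21A were lost after the rescaling, where LYL1 in the control line had -0.09 at 12 h and 0.10 at 48 h and PHF21A in the ETO2-GLIS2 clone -0.08 and 0.08.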

How the results depend on the processing

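The call of CBFA2T3 at 48 h in the AML1-ETO clone held under each alternative except a mean FPKM filter of 5, which left 1 call (RUNX1T1) because the mean of CBFA2T3 lies below it. Each of the 9 names had 1 identifier, so the handling of repeated names could not change any of these calls. With no expression filter, 1 gene (RUNX1T1, from 0 to 5 reads) was called in the control line at 48 h. That call removed RUNX1T1 from the AML1-ETO clone at 48 h and left 1 (CBFA2T3), as did excluding genes by a 2-fold change in the control line whatever their level. At 12 h in the AML1-ETO clone the count was 1 (RUNX1T1) with a pseudocount of 1 FPKM, with a mean FPKM filter of 5 and with a 3-fold limit. At 12 h in the ETO2-GLIS2 clone it was 0 with a 3-fold limit and 0 against the control library of the same time. With a 1.5-fold limit HDAC1 joined the calls at 48 h in the AML1-ETO clone. Rescaling by the median ratio of expressed genes changed the median log2 fold change of all tested genes. It went from between 0.11 and 0.22 to between 0.01 and 0.06. The rescaling moved 37 of the 50 fold changes of the 9 genes beyond their counting interval. It turned 7 of them in sign and changed no call among the 9 genes. Those 7 were small: CBFA2T2 in the control line at 48 h, NCOR1 in the control line at 12 h, HDAC2 in the ETO2-GLIS2 clone at 12 h, and NCOR1 (48 h), HDAC3 (48 h) and SIN3A (12 and 48 h) in the AML1-ETO clone. Of 32 fold changes in the clones, 6 turned in sign against the control library of the same time and 4 when the change of the control line was subtracted, none of them of a called gene. At 48 h in the control line the same rescaling turned 930 higher and 347 lower genes into 686 and 474. Leaving mitochondrial genes out of the library total moved 3 of 50 values. No replicate could be left out, and no paired analysis was possible because each condition had 1 library and no result comes from a test. Depth limits RUNX1T1 outside the AML1-ETO clone and CBFA2T3 at 48 h inside it, which rests on 20 reads.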
